A study of Mus musculus with 8 samples.

Results

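Chemokines are small secreted proteins that draw leukocytes along a gradient, and their receptors are G protein-coupled receptors on the cells that respond. The genes described here are every row with values whose symbol belongs to the Ccl, Cxcl, Cx3cl and Xcl ligands or to the Ccr, Cxcr, Cx3cr, Xcr and Ackr receptors: 52 genes, among 61 such rows listed and among 18835 genes with values in all. Of them 32 were ligands (39 rows listed) and 20 were receptors (22 rows listed), 4 of these being the atypical receptors Ackr1 to Ackr4. No value was given for 9 rows: Ccl20, Ccl21b, Ccl21d, Ccl26, Ccl27b, Cxcl15, Cxcl17, Ccr6 and Cxcr1.

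Ligands are classed by the spacing of their first cysteines as CC, CXC, CX3C and XC chemokines, and several ligands usually share a receptor. CXC ligands that bind CXCR2 draw neutrophils, ligands of CCR2 draw inflammatory monocytes, CXCR3 ligands draw activated T cells, and CCR7 and CXCR5 with their ligands place dendritic cells, T cells and B cells in lymphoid tissue. Atypical receptors bind chemokines without signalling through G proteins, and some of them, though not all, remove chemokines from the surroundings. In the inflamed heart, monocytes that carry CCR2 are a known source of recruited macrophages.

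The 8 hearts sequenced came from male BALB/cAJcl mice of 10 weeks, all immunized with cardiac myosin to induce autoimmune myocarditis. One group of 4 received VEGF-C C156S, a variant of the lymphangiogenic growth factor, at 1 µg per day into the peritoneum from day 7 to day 10, and the control group of 4 received PBS over the same days. Hearts were taken in week 3, so the treatment had ended when the RNA was collected. The title of the series names cardiac lymphatic endothelial cells, but the labels give heart tissue, and the 6 cardiomyocyte markers and 6 lymphatic endothelial markers looked for were read in every library. In such bulk tissue, fewer cells of a type and less RNA per cell cannot be told apart.

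Library depth ranged from 61.7 to 76.8 M reads (M for mega) in the PBS group and from 53.7 to 65.2 M reads in the VEGF-C group. Levels are given as normalized counts, that is reads divided by the size factor of the library. A fold change is the difference of mean log2(normalized count + 4), VEGF-C minus PBS, a scale that understates the change of low genes. It was tested with limma with Benjamini-Hochberg adjustment over all 18835 genes, at a threshold of 0.05. The numbers of the libraries could not be tied to single animals. The p-values set the difference between the groups against the spread of these 8 libraries within their groups, which limma moderates over all genes. No chemokine gene had 0 reads in a library, but 14 of the 52 had fewer than 30 reads in at least 1.

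Most chemokine ligands had lower mean levels in the VEGF-C hearts, and few of these differences passed the test. Cxcl1, Ccl2 and Ccl27a fell and Ccl12 rose, so that 4 of 32 ligands (12.5%) passed, against 15.7% of all genes. Lower calls were 3 of 32 ligands, against 8.61% of all genes, and higher calls were 1 of 32, against 7.05%. Among receptors, 1 of 20 passed, Cxcr5, which fell. The share of called ligands was thus near that of all genes, and that of called receptors lay below it.

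Signs were less evenly split among the ligands than over all genes. The fold change was negative in 27 of 32 ligands (84.4%) and in 49.8% of all genes, and the ligand median was -0.46 on the log2 scale against 0.00 over all genes. Single ligands ranged from -1.33 for Cxcl1 to 0.74 for Ccl12. The receptors were negative in 14 of 20, with a median of -0.11 and a range from -1.59 for Cxcr5 to 0.76 for Ackr4. Without PBS library 1 the ligand median moved to -0.26 and 21 of 32 ligands were negative. The 6 cardiomyocyte markers were higher in sum in every VEGF-C heart (3102600 to 3359890 normalized counts, against 2252340 to 3088040 in PBS), with a median of 0.38 and 0 past the threshold. Single markers ranged from -0.006 for Tnnt2 to 0.50 for Ttn. Myh6 weighed most in the sum, with means of 1375660 in PBS and 1707040 in VEGF-C hearts (0.34, limma adjusted p = 0.442). The part of these markers in the ligand values was not tested. At an unadjusted p under 0.05 stood 10 of 32 ligands and 6 of 20 receptors, against 32.3% of all genes.

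**Figure D1:**
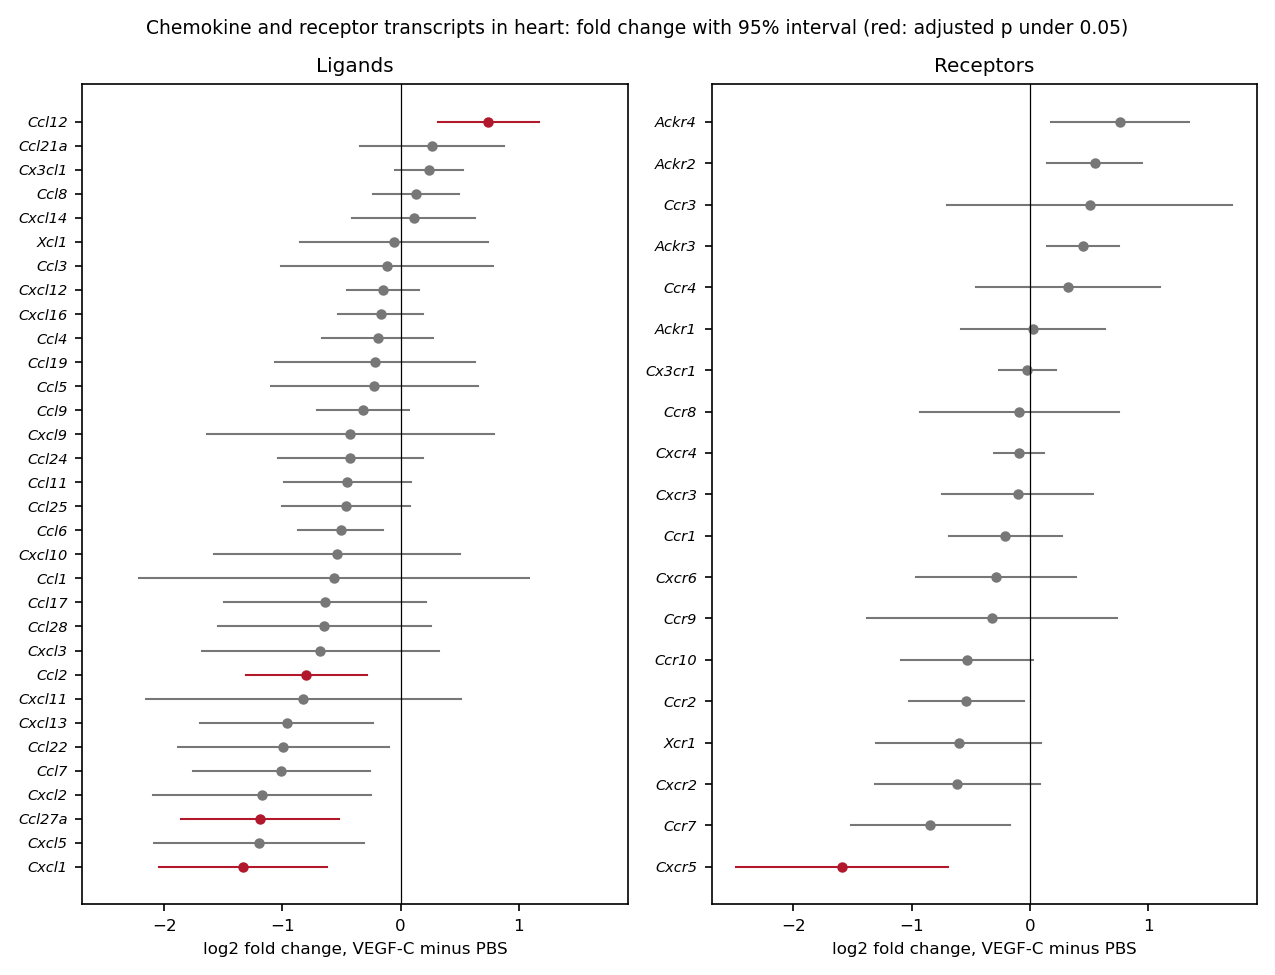
Fold changes of the chemokine genes (x axis, log2 of VEGF-C over PBS, points with 95% confidence intervals from limma), ligands and receptors in separate panels, with genes past an adjusted p of 0.05 marked. Of 32 ligands 27 lie left of 0, and the 5 marked genes are Cxcl1, Ccl27a, Ccl2, Ccl12 and Cxcr5.

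The neutrophil-attracting ligands of CXCR2 had the lowest median fold change of the ligand groups, and 3 of the 4 have a promoter entry in the RefSeq table of GRCm38.p6, which is another build than the GRCm39 named for these libraries. They are shown because these genes lie in 1 cluster on chromosome 5 and had fold changes of the same sign. Each window runs from 250 bases before the start of the gene to 50 bases after it, on the plus strand, and the capitals mark a 10-letter κB-type motif. The windows are chr5:90890995-90891294 for Cxcl1, chr5:90903649-90903948 for Cxcl2 and chr5:90785851-90786150 for Cxcl3. The Ccl12 window, chr11:82101595-82101894 on the plus strand, is printed beside them as the ligand that rose.
Cxcl1: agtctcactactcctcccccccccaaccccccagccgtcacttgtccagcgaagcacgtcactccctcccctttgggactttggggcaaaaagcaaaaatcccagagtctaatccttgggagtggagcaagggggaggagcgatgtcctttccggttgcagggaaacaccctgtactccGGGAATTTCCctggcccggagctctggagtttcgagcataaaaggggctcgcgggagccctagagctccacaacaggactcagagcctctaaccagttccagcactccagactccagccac
Cxcl2: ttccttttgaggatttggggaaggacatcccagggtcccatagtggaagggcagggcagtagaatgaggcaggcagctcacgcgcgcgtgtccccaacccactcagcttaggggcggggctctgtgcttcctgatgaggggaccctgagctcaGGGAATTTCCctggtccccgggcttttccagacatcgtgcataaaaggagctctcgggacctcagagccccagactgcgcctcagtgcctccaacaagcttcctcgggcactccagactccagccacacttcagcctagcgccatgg
Cxcl3: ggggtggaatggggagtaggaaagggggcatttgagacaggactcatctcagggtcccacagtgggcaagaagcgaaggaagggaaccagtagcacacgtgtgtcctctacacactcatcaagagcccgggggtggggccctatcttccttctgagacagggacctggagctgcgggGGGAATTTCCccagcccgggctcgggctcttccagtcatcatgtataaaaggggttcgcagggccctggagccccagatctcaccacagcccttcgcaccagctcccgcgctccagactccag
Ccl12: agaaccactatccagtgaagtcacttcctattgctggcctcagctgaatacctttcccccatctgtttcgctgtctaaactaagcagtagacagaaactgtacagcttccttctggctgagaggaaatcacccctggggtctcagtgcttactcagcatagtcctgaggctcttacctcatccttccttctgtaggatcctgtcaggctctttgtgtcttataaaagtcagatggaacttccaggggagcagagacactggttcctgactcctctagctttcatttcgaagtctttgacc

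Searched with exactly the letters in capitals and their reverse complement on the other strand, this motif was held by 29 of the 32851 promoters of the table, or 0.0883%. Of the 52 chemokine genes with values 39 had an entry, and 4 of them held it: Cxcl1, Cxcl2, Cxcl3 and the receptor Ccr3. It lay 71 to 62 bases before the start in Cxcl1, 97 to 88 bases before it in Cxcl2 and 73 to 64 bases before it in Cxcl3. The printed windows were chosen with the fold changes known. Cxcl1, Cxcl2 and Cxcl3 lie in the same cluster, so their matches may not be independent, and no enrichment was tested. The match describes the letters of the window, and no binding was measured. The letters are absent from the Ccl12 window, but also from those of Ccl27a, Cxcl13 and Ccl6, with fold changes of -1.19, -0.96 and -0.51. Ccr3, which holds them, stood at 0.51. Whether the motif goes with the direction of a fold change was not tested. Among genes without an entry were Ccl2, Ccl4, Ccl5, Ccl7, Ccl11, Ccl24, Ccr7, Ccr10, Cxcl5, Cxcl11, Cxcl16 and Cxcr5.

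Cxcl1 (ENSMUSG00000029380), a neutrophil attractant, fell in the VEGF-C hearts. Its normalized counts were 2119.9, 1684, 744 and 828 in PBS libraries 1 to 4 and 488, 405, 408 and 668 in VEGF-C libraries 1 to 4. All 4 VEGF-C values lay below all 4 PBS values, and the PBS group itself split into libraries 1 and 2 at the high end and 3 and 4 at the low end. The means were 1344 ± 669 (SD, n = 4) and 492 ± 123 (SD, n = 4), and the log2 fold change was -1.33 ± 0.32 (SE; limma adjusted p = 0.0212), with a 95% interval of -2.04 to -0.62. The call was lost without PBS library 2 or without VEGF-C library 1, 2 or 3 (adjusted p up to 0.0597), and with a robust variance fit (adjusted p = 0.0515).

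Cxcl2, made early by activated macrophages, was read at 146, 82.2, 64.8 and 104 in PBS libraries 1 to 4 and 74.2, 62.4, 29.1 and 17.7 in VEGF-C libraries 1 to 4. The VEGF-C values reached lower, but that of library 1 lay inside the PBS range. Its fold change was -1.17 ± 0.41 (SE; limma adjusted p = 0.0803). Cxcl5 and Cxcl3, the other ligands of this receptor with values, had fold changes of -1.20 (limma adjusted p = 0.0676) and -0.68 (limma adjusted p = 0.330). The median of the 4 ligands was -1.18, and each was negative in every alternative fit that held it (Cxcl3 is left out by the filter on a mean of 50). The receptor CXCR2, which neutrophils carry, had Cxcr2 counts of 1051, 419, 562 and 384 in PBS libraries 1 to 4 and 293, 572, 294 and 349 in VEGF-C libraries 1 to 4. PBS library 1 was the highest and the groups overlapped, at a fold change of -0.61 ± 0.32 (SE; limma adjusted p = 0.208).

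Neutrophil markers (S100a8, S100a9, Ly6g, Mmp8, Csf3r and Retnlg) were also lower on the median: their median log2 fold change was -0.71, and 1 of 6 passed, Csf3r, which fell at -0.77 (limma adjusted p = 0.0316) and lost its call in 5 of the 8 fits that left out 1 library. Their summed normalized counts ranged from 14551 to 41351 in the PBS libraries and from 9928 to 31304 in the VEGF-C libraries, and none was at 0. The highest sums were those of PBS library 3 and VEGF-C library 2, and the highest Cxcl1 counts were those of PBS libraries 1 and 2. S100a8 and S100a9, with PBS means of 8072 and 14484, weighed most in these sums. The Csf3r call was also lost with the robust fit. The part of the neutrophil markers in the Cxcl1 result was not tested.

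The ligands of CCR2 went in both directions. Ccl2 (ENSMUSG00000035385), the main monocyte attractant, had normalized counts of 1179, 583, 499 and 719 in PBS libraries 1 to 4 and 391, 487, 382 and 367 in VEGF-C libraries 1 to 4. All VEGF-C values lay below the lowest PBS value (PBS library 3), VEGF-C library 2 being the nearest to it. The means were 745 ± 303 (SD, n = 4) and 407 ± 54.5 (SD, n = 4). Ccl2 fell by 0.80 on the log2 scale, with an SE of 0.23, a 95% interval of -1.31 to -0.28 and a limma adjusted p of 0.0429. The call was lost without PBS library 2 or 4 or without any 1 of the VEGF-C libraries (adjusted p up to 0.0989), and with limma-voom on the reads (adjusted p = 0.0638).

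Ccl12 (ENSMUSG00000035352), a mouse ligand of the same receptor, rose. Its normalized counts were 393, 373, 386 and 687 in PBS libraries 1 to 4 and 683, 907, 691 and 721 in VEGF-C libraries 1 to 4. PBS library 4 lay at the level of the VEGF-C group, so the groups overlapped, while the other 3 PBS libraries lay close together and lower. The means were 459.8 ± 152 (SD, n = 4) and 750.3 ± 105 (SD, n = 4), and the log2 fold change was 0.74 ± 0.19 (SE; limma adjusted p = 0.0290), with a 95% interval of 0.31 to 1.17. The call was lost without PBS library 2 or 3, without any 1 of the VEGF-C libraries (adjusted p up to 0.0751) and with scaling by library totals (adjusted p = 0.0608).

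Ccl7, the third ligand of CCR2, was read at 1827, 744, 506 and 853 in PBS libraries 1 to 4 and 542, 436, 297 and 501 in VEGF-C libraries 1 to 4. The PBS group spread widely, library 1 being far above the others, and VEGF-C library 1 lay inside the PBS range. Its fold change was -1.01 ± 0.34 (SE; limma adjusted p = 0.0684). Without PBS library 1 it was -0.66 (adjusted p = 0.0763), and it passed with library totals and without PBS library 3. The receptor gene Ccr2, a marker of inflammatory monocytes, had counts of 6742, 2798, 4677 and 4008 in PBS libraries 1 to 4 and 3146, 2737, 2641 and 3508 in VEGF-C libraries 1 to 4. PBS library 1 was again the highest and PBS library 2 lay among the VEGF-C values. The Ccr2 fold change was -0.54 ± 0.22 (SE; limma adjusted p = 0.123), and it passed the test without PBS library 2 and with library totals. Without PBS library 1 it was -0.32 (adjusted p = 0.199).

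The ratio of Ccl12 to Ccl2 within each library, chosen for display after the values were seen and therefore not tested, was 0.333, 0.639, 0.774 and 0.956 in PBS libraries 1 to 4. In VEGF-C libraries 1 to 4 it was 1.75, 1.86, 1.81 and 1.96. Thus Ccl2 counts exceeded Ccl12 counts in every PBS heart and the reverse held in every VEGF-C heart. A ratio within a library does not depend on the size factor, but it does not say which of the genes differed.

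Monocyte markers (Ly6c2, Plac8, Chil3, F13a1 and Vcan) summed to 10328 to 13175 normalized counts in the PBS libraries and 9570 to 11526 in the VEGF-C libraries, with 1 of 5 past the threshold, Ly6c2, which fell at -0.39 (limma adjusted p = 0.0409) and lost its call in 6 of the 8 fits that left out 1 library. Of 9 macrophage markers 0 passed, their sums overlapped (75037 to 89075 and 72133 to 87526) and their median fold change was -0.03. No marker of either list was at 0. Their part in the Ccl2 and Ccl12 results was not tested.

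**Figure D2:**
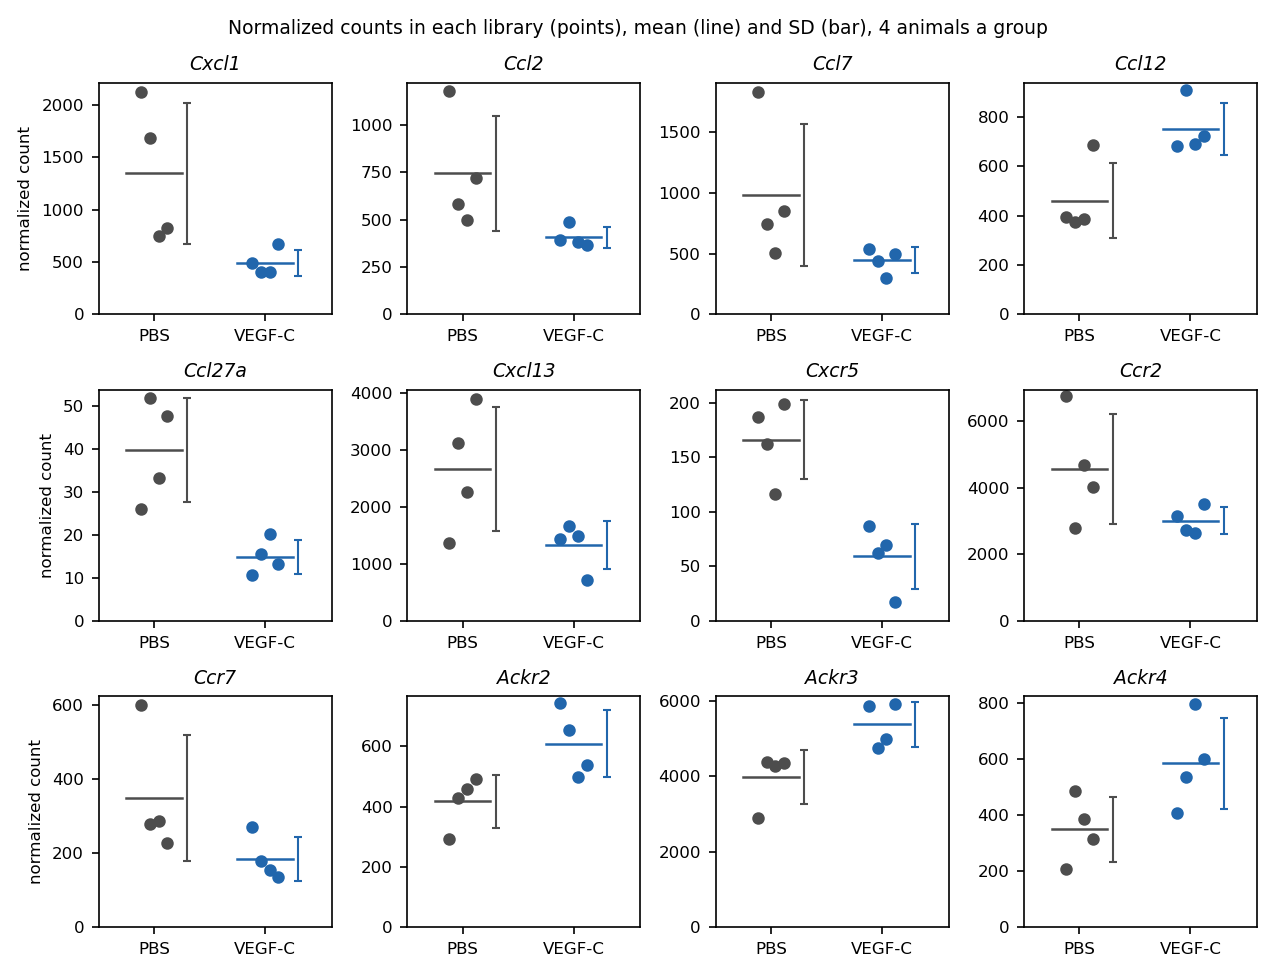
Normalized counts (y axis, from 0) of 12 chemokine genes in each of the 8 libraries (points), with the mean of each group as a line and its SD (n = 4) as a bar, PBS at the left and VEGF-C at the right of each panel. The VEGF-C points of Cxcl1, Ccl2 and Cxcr5 all lie below the PBS points, and 1 PBS point of Ccl12 (687 counts) lies within the VEGF-C range of 683 to 907.

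Ccl27a (ENSMUSG00000073888), a ligand of CCR10 known from skin, fell from a low level. Its normalized counts were 26.0, 51.8, 33.3 and 47.8 in PBS libraries 1 to 4 and 10.6, 15.6, 20.2 and 13.3 in VEGF-C libraries 1 to 4, with 10 reads in its lowest library. No VEGF-C value reached the lowest PBS value. The means were 39.7 ± 12.1 (SD, n = 4) and 14.9 ± 4.06 (SD, n = 4), and the fold change was -1.19 ± 0.30 (SE; limma adjusted p = 0.0260), with a 95% interval of -1.86 to -0.52. The call was lost without PBS library 2 or 4 and without VEGF-C library 1 or 4 (adjusted p up to 0.0699). It has a near-identical copy, Ccl27b, and overlaps Il11ra1 on the opposite strand, and the strand setting of the counting was not given in the sources used here, so its reads are uncertain.

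The other ligands grouped with it, Ccl28 for the receptors CCR3 and CCR10 and Ccl25 for CCR9, had fold changes of -0.64 (limma adjusted p = 0.302) and -0.46 (limma adjusted p = 0.221). Their receptors Ccr10 and Ccr9 stood at -0.53 (limma adjusted p = 0.172) and -0.32 (limma adjusted p = 0.683). Ccl28 and Ccr9 were the lowest genes of their classes per exon length, and the reads of Ccl28 ranged from 6 to 38 per library.

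Of the inflammatory ligands Ccl3, Ccl4, Ccl5, Ccl6 and Ccl9, 0 of 5 passed. Ccl5, which T cells and NK cells release, was read at 2169.5, 695, 1902 and 674 in PBS libraries 1 to 4 and 1618, 795, 909.7 and 893 in VEGF-C libraries 1 to 4. PBS libraries 1 and 3 and VEGF-C library 1 were high, and the fold change was -0.22 ± 0.39 (SE; limma adjusted p = 0.736); it turned positive without PBS library 1 or 3. The remaining members ranged from -0.51 for Ccl6 (limma adjusted p = 0.0600) to -0.11 for Ccl3 (limma adjusted p = 0.876). Ccr1, a receptor of several of them, stood at -0.21 (limma adjusted p = 0.543).

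The ligands of CCR4, made by dendritic cells and macrophages, were set apart by 1 library. Ccl17 was read at 340.0, 94.9, 107 and 106 in PBS libraries 1 to 4 and 71.0, 127, 96.4 and 67.4 in VEGF-C libraries 1 to 4. Ccl22 was read at 600.3, 143, 187 and 209 in PBS libraries 1 to 4 and 169.7, 112, 134 and 79.6 in VEGF-C libraries 1 to 4. In both genes PBS library 1 lay far above the other 7 libraries. The fold change of Ccl17 was -0.64 ± 0.39 (SE; limma adjusted p = 0.280) and that of Ccl22 was -0.99 ± 0.40 (SE; limma adjusted p = 0.118). Without PBS library 1 they were -0.22 and -0.56. The fold change of the receptor Ccr4 was 0.32 (limma adjusted p = 0.562).

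Ccl11, the eosinophil attractant eotaxin, was read at 312, 276, 252 and 264 in PBS libraries 1 to 4 and 282, 122, 175 and 267 in VEGF-C libraries 1 to 4. VEGF-C libraries 2 and 3 were low and the other 2 lay in the PBS range. Its fold change was -0.45 ± 0.24 (SE; limma adjusted p = 0.230), and that of Ccl24 was -0.43 (limma adjusted p = 0.316). Their receptor Ccr3 stood at 0.51 with a wide 95% interval of -0.70 to 1.71. The 7 eosinophil and mast cell markers had a median of -0.98 with 0 past the threshold, and Epx was at 0 in at least 1 library.

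Ccl8 was the most abundant ligand per exon length in the PBS hearts. Its normalized counts were 4006, 3546, 4055 and 4023 in PBS libraries 1 to 4 and 3912, 5987, 3122 and 4518 in VEGF-C libraries 1 to 4. The PBS hearts differed little, the highest being 1.14 times the lowest, and the VEGF-C values lay on both sides of them. The fold change was 0.13 ± 0.16 (SE; limma adjusted p = 0.630), and its sign turned with scaling by library totals and without VEGF-C library 2. Ccl1, which shares the receptor CCR8 with it, varied 14.0-fold among the PBS hearts, and Ccr8 stood at -0.09 (limma adjusted p = 0.896).

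The ligands of CCR7 guide dendritic cells and naive T cells towards lymphatic vessels. Ccl21a, made by lymphatic endothelium, was read at 4220.3, 5131, 8206 and 7637 in PBS libraries 1 to 4 and 8279, 10978, 4515 and 6923 in VEGF-C libraries 1 to 4. The highest value was that of VEGF-C library 2, but VEGF-C library 3 stood beside the lowest PBS library. The fold change was 0.27 ± 0.28 (SE; limma adjusted p = 0.540). Ccl21a has near-identical copies, so its reads may include theirs or miss those assigned to them.

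Ccl19, from stromal and dendritic cells, had counts of 133, 51.8, 49.9 and 119.9 in PBS libraries 1 to 4 and 67.9, 110.4, 41.5 and 70.7 in VEGF-C libraries 1 to 4. Its groups overlapped, and the fold change was -0.22 ± 0.38 (SE; limma adjusted p = 0.731); it turned positive without PBS library 1 or VEGF-C library 3. The receptor Ccr7, carried by migrating dendritic cells and naive lymphocytes, was read at 599.5, 278, 287 and 227 in PBS libraries 1 to 4 and 269, 179, 156 and 135 in VEGF-C libraries 1 to 4. Only VEGF-C library 1 lay inside the PBS range, and the fold change was -0.84 ± 0.30 (SE; limma adjusted p = 0.0842). It was -0.55 without PBS library 1 (adjusted p = 0.127) and passed with library totals. The 6 dendritic cell markers had a median of -0.41 with 0 past the threshold, and their sums ranged from 3727 to 6131 in PBS and from 2681 to 3844 in VEGF-C hearts. PBS library 1 was highest and PBS library 4 lowest in both that sum and Ccr7. Among VEGF-C hearts, library 4 had the highest sum (3844) and the lowest Ccr7 count (135). Whether the sum and Ccr7 are linked was not tested.

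The interferon-induced ligands of CXCR3 varied widely between hearts of a group. Cxcl9 was read at 8212, 865, 2971 and 2989.7 in PBS libraries 1 to 4 and 2360.3, 3268, 1383 and 1824 in VEGF-C libraries 1 to 4. Cxcl10 was read at 835, 143, 294 and 493 in PBS libraries 1 to 4 and 219, 431, 178 and 228 in VEGF-C libraries 1 to 4. PBS library 1 held the highest value and PBS library 2 the lowest in both genes. The PBS hearts thus spanned 9.50-fold in Cxcl9. Its fold change was -0.42 ± 0.55 (SE; limma adjusted p = 0.632), which turned positive without PBS library 1, and that of Cxcl10 was -0.54 ± 0.47 (SE; limma adjusted p = 0.461). Cxcl11, a transcribed pseudogene in the reference annotation, stood at -0.82 (limma adjusted p = 0.375). Whether it is a pseudogene in the strain of these mice was not examined. Art3 overlaps Cxcl10 on the opposite strand and had a fold change of 0.40 (limma adjusted p = 0.0406), so the Cxcl10 reads are uncertain.

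Cxcr3, their receptor on activated T cells, was read at 165, 203, 152 and 90.8 in PBS libraries 1 to 4 and 169.7, 88.3, 123 and 188 in VEGF-C libraries 1 to 4. High and low values occurred in both groups, and the fold change was -0.10 ± 0.29 (SE; limma adjusted p = 0.840), of changing sign when PBS library 2 or VEGF-C library 2 was left out. Of 8 T cell markers 0 passed the test and their median fold change was -0.02, with sums of 2648 to 3868 in PBS and 2624 to 3605 in VEGF-C hearts. None of them was at 0.

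Cxcl12, which stromal and endothelial cells make without inflammation, differed little. Its counts were 20944, 21957, 18279 and 21165 in PBS libraries 1 to 4 and 23739, 16446, 15049 and 20059.8 in VEGF-C libraries 1 to 4. The fold change was -0.15 ± 0.14 (SE; limma adjusted p = 0.484), with a 95% interval of -0.45 to 0.15. Cxcr4, its signalling receptor, was read at 1665, 1880.1, 2004 and 1708 in PBS libraries 1 to 4 and 1822, 1464, 1768 and 1768 in VEGF-C libraries 1 to 4. Only VEGF-C library 2 stood low. The Cxcr4 fold change was -0.09 ± 0.09 (SE; limma adjusted p = 0.548), with a 95% interval of -0.30 to 0.12.

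Cxcl16, a membrane-bound ligand of CXCR6, had counts of 6524, 4474, 7268 and 4549.7 in PBS libraries 1 to 4 and 5811, 4647, 4444 and 5036 in VEGF-C libraries 1 to 4. The groups overlapped at a fold change of -0.17 ± 0.16 (SE; limma adjusted p = 0.504), and the overlapping gene Zmynd15 on the opposite strand stood at -0.71 (limma adjusted p = 0.00325). Cxcr6 had a fold change of -0.28 (limma adjusted p = 0.560). Cx3cl1, the fractalkine of endothelium, was read at 1919, 1355, 1302 and 1468 in PBS libraries 1 to 4 and 1922, 1962, 1574 and 1638 in VEGF-C libraries 1 to 4. VEGF-C libraries 1 and 2 lay just above the highest PBS value and libraries 3 and 4 inside the PBS range. The Cx3cl1 fold change was 0.24 ± 0.13 (SE; limma adjusted p = 0.226). It passed the test without PBS library 1, and with library totals it was 0.050 (adjusted p = 0.800).

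Cx3cr1, the fractalkine receptor of monocytes and resident macrophages, had counts of 1565, 1229, 1247 and 1599.8 in PBS libraries 1 to 4 and 1471, 1234, 1409 and 1412 in VEGF-C libraries 1 to 4. The fold change was -0.02 ± 0.11 (SE; limma adjusted p = 0.914), with a 95% interval of -0.26 to 0.22, and its sign was not fixed over the libraries left out. Xcl1 and its receptor Xcr1, which marks cross-presenting dendritic cells, stood at -0.06 (limma adjusted p = 0.933) and -0.60 (limma adjusted p = 0.216). Cxcl14, a CXC ligand of epithelia and fibroblasts, stood at 0.11 (limma adjusted p = 0.783), with a sign that turned under library totals.

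Cxcr5 (ENSMUSG00000047880), the receptor that brings B cells and follicular helper T cells to follicles, was the only receptor that passed. Its normalized counts were 187, 162, 116 and 199 in PBS libraries 1 to 4 and 86.9, 62.4, 69.5 and 17.7 in VEGF-C libraries 1 to 4. The groups did not overlap, and VEGF-C library 4 was far below the others. The means were 166 ± 36.6 (SD, n = 4) and 59.1 ± 29.5 (SD, n = 4). Cxcr5 fell by 1.59 on the log2 scale, with an SE of 0.40, a 95% interval of -2.48 to -0.69 and a limma adjusted p of 0.0269. The call was lost without PBS library 2 or 4 (adjusted p up to 0.0643). Bcl9l overlaps it on the opposite strand and had a positive fold change of 0.32 (limma adjusted p = 0.0485).

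Its ligand Cxcl13, the B cell attractant of follicular stroma, was read at 1372, 3114, 2257 and 3895 in PBS libraries 1 to 4 and 1442, 1663, 1495 and 725 in VEGF-C libraries 1 to 4. VEGF-C library 4 was again the lowest, and VEGF-C libraries 1 to 3 lay just above the lowest PBS value. The Cxcl13 fold change was -0.96 ± 0.33 (SE; limma adjusted p = 0.0736). Of 6 B cell markers 4 fell, among them Cd22 at -1.04 (limma adjusted p = 0.00667), Cd79a at -1.56 (limma adjusted p = 0.0186) and Cd79b at -1.17 (limma adjusted p = 0.0199). The 6 markers summed to 2688 to 4542 in the PBS libraries and 706 to 1847 in the VEGF-C libraries, with a median of -1.503 and none at 0. VEGF-C library 4 held the lowest sum as well. The Cd79a call was lost without VEGF-C library 3 (adjusted p = 0.0526) and the Cd79b call without PBS library 2 or VEGF-C library 3 (adjusted p up to 0.0574). Their part in the Cxcr5 result was not tested.

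The atypical receptors had higher mean levels in the VEGF-C hearts, though 0 of 4 passed the test. Their median log2 fold change was 0.50, and all 4 were positive, Ackr1 only under some scalings, while 14 of the other 16 receptors were negative with a median of -0.25. Ackr3, which takes up CXCL12, was read at 2904, 4378, 4266 and 4365 in PBS libraries 1 to 4 and 5874, 4754, 4997 and 5908 in VEGF-C libraries 1 to 4. All VEGF-C values exceeded all PBS values, and PBS library 1 was lower than the rest. The fold change was 0.45 ± 0.14 (SE; limma adjusted p = 0.0519), with a 95% interval of 0.14 to 0.76. With a robust variance fit the adjusted p was 0.0463, and with library totals the fold change was 0.26 (adjusted p = 0.232).

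Ackr2, which degrades inflammatory CC chemokines on lymphatic endothelium, had counts of 292, 430.4, 458 and 492 in PBS libraries 1 to 4 and 744, 655, 499 and 539 in VEGF-C libraries 1 to 4. The groups did not overlap, VEGF-C library 3 being just above PBS library 4. Its fold change was 0.55 ± 0.18 (SE; limma adjusted p = 0.0668), and 0.36 with library totals (adjusted p = 0.200). Ackr4, which takes up the CCR7 ligands, was read at 208, 487, 387 and 316 in PBS libraries 1 to 4 and 409, 535, 797 and 602 in VEGF-C libraries 1 to 4. PBS library 2 and VEGF-C library 1 crossed, and the fold change was 0.76 ± 0.26 (SE; limma adjusted p = 0.0742); it passed without PBS library 2, and with library totals it was 0.57 (adjusted p = 0.162). Acad11 overlaps it on the opposite strand.

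Ackr1, the receptor of venular endothelium and erythroid cells, had counts of 145, 246, 256 and 305 in PBS libraries 1 to 4 and 239.6, 370.2, 166 and 203 in VEGF-C libraries 1 to 4. The groups overlapped at a fold change of 0.03 ± 0.28 (SE; limma adjusted p = 0.958), and the sign turned with library totals, with upper-quartile factors and without PBS library 1 or VEGF-C library 2. Gpr182, an endothelial receptor now also counted among the atypical chemokine receptors and named here after its values were seen, was read at 629, 655, 796 and 654 in PBS libraries 1 to 4 and 1009, 1111, 957 and 864 in VEGF-C libraries 1 to 4. No PBS value reached the lowest VEGF-C value, and Gpr182 rose by 0.53 ± 0.11 (SE; limma adjusted p = 0.0120). The call was lost with library totals (adjusted p = 0.0709).

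Lymphatic endothelial markers summed to 10433 to 14879 normalized counts in the PBS and 12066 to 19157 in the VEGF-C libraries, with 1 of 6 past the threshold, Flt4, which rose at 0.40 (limma adjusted p = 0.0481). Flt4, the VEGF-C receptor, lost its call in 6 of the 8 fits that left out 1 library, under both other scalings and with limma-voom. Of 6 blood endothelial markers 0 passed, with sums of 58077 to 69300 and 64489 to 77803. Fibroblast markers did not overlap in sum (307772 to 434978 and 464573 to 548959), and 1 of 6 passed, Col1a1, which rose at 0.69 (limma adjusted p = 0.00926). The median fold change of that list was 0.09, with Pdgfra at -0.21 and Dcn at -0.12, and the mean count of Col1a1 alone was 144780.0 in PBS and 233722 in VEGF-C hearts. No marker of these lists was at 0, and their part in the Ackr and Gpr182 values was not tested.

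Of all 52 genes 6 had groups that did not overlap (11.5%), against 23.0% of all genes. They were Cxcl1, Ccl2, Ccl27a and Cxcr5 with every VEGF-C value lower, against 11.6% of all genes, and Ackr2 and Ackr3 with every VEGF-C value higher, against 11.5%. Both shares in the family were below those of all genes. Spread within groups was wide: the median SD on the log2 scale was 0.54 for ligands and 0.47 for receptors in the PBS group, and 0.45 and 0.33 in the VEGF-C group, against 0.19 and 0.18 over all genes. The PBS group had the wider spread in 37 of 52 chemokine genes (71.2%) and in 54.3% of all genes.

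Single hearts carried much of this spread. PBS library 1 was the highest PBS library in 21 of 32 ligands and in 7 of 20 receptors, and its median ligand deviation from the PBS mean was 0.54 on the log2 scale. PBS library 2 was the lowest of its group in 13 ligands. Among VEGF-C hearts library 2 was the highest in 17 ligands and library 3 the lowest in 14. Median deviations of the receptors were smaller, from -0.26 to 0.17 over the 8 libraries. Without PBS library 1, 7 ligands passed, 5 lower and 2 higher, against 15.4% of all genes. They were Ccl2, Ccl6, Ccl27a, Cxcl1 and Cxcl13, which fell, and Ccl12 and Cx3cl1, which rose.

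**Figure D3:**
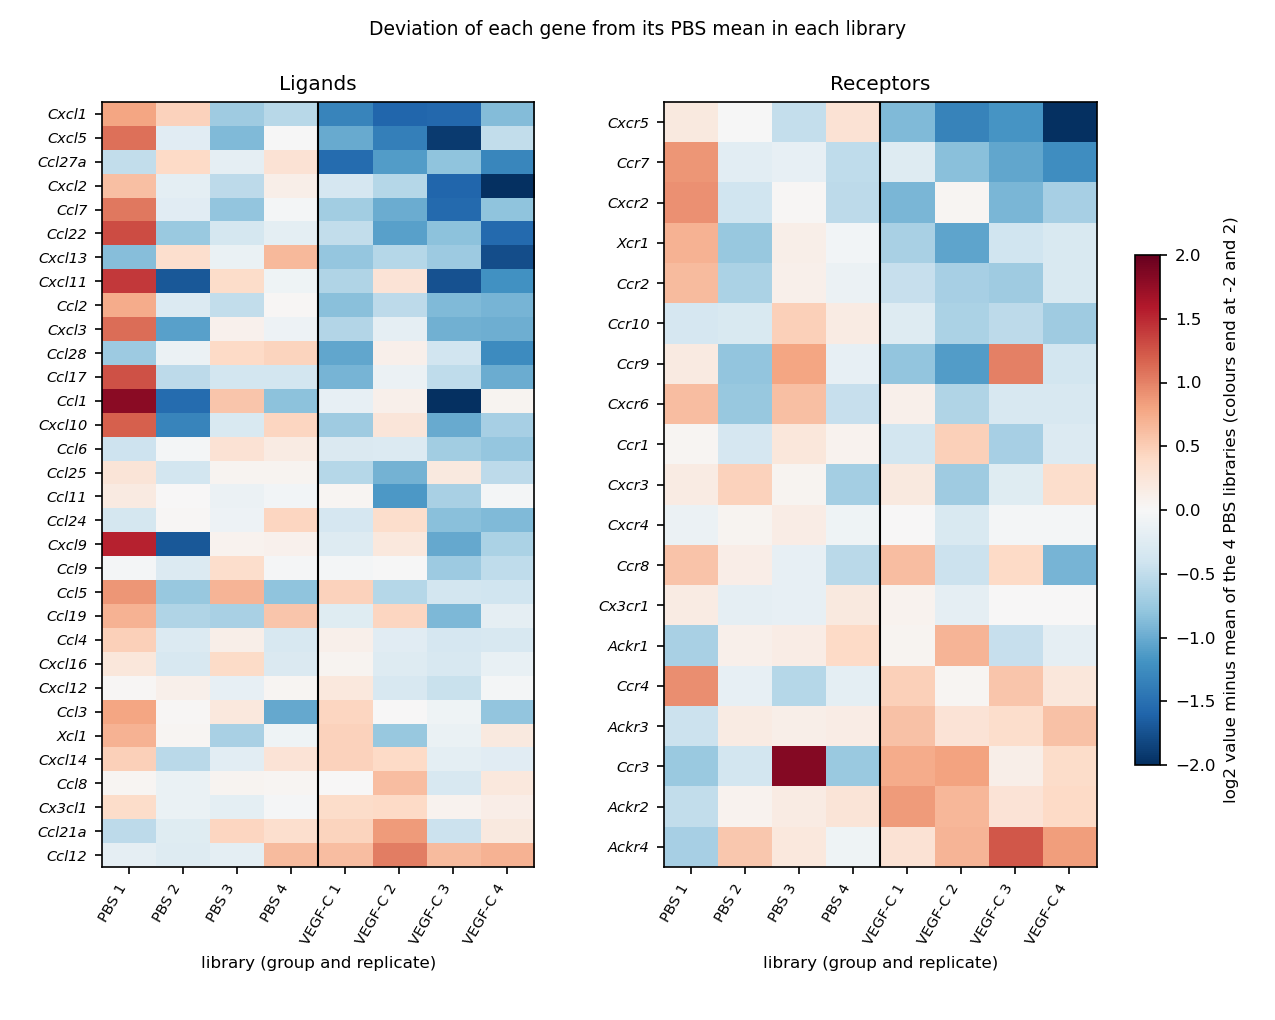
Deviation of the chemokine genes (rows, ligands and receptors in separate blocks) in each of the 8 libraries (columns) from the mean of the PBS libraries, as log2 units on the color scale. PBS library 1 is the highest PBS library in 21 of 32 ligands, and VEGF-C libraries 3 and 4 are low in most ligands, with median deviations of -0.71 and -0.57.

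Along the genome, neighbours did not all share a direction. In the chromosome 11 cluster the order of the reference annotation is Ccl2, Ccl7, Ccl11, Ccl12, Ccl8 and Ccl1, with fold changes of -0.80, -1.01, -0.45, 0.74, 0.13 and -0.56. Of these Ccl2 and Ccl12 passed the test, in opposite directions. On chromosome 5 the order is Cxcl5, Cxcl3, Cxcl1 and Cxcl2, followed by Cxcl9, Cxcl10, Cxcl11 and Cxcl13. Only the order was taken, so these genes need not lie in 1 cluster. All 8 fold changes were negative, from -1.33 for Cxcl1 to -0.42 for Cxcl9. That of Cxcl9 turned positive without PBS library 1.

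**Figure D4:**
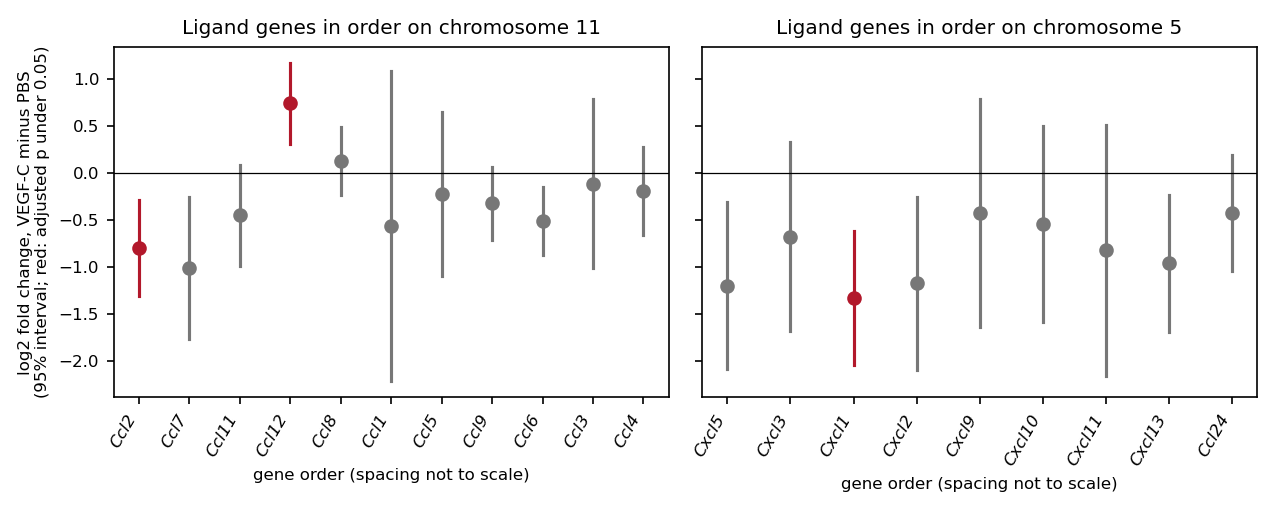
Fold change (y axis, log2 of VEGF-C over PBS, with 95% confidence intervals) of the chemokine genes of chromosomes 11 and 5 in the order of the reference annotation (x axis, not to scale in bases). On chromosome 11, Ccl12 at 0.74 is the highest, and on chromosome 5 Cxcl1 at -1.33 is the lowest.

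Per kilobase of exon, mean PBS levels of ligands ran from 7646 normalized counts per kb for Ccl8 and 7240 for Ccl21a down to 4.72 for Ccl28. Cxcl12 stood at 2518 and Cxcl13 at 2312, while Cxcl1 (717) and Ccl2 (655) ranked 13 and 14 of 32. Ccl12 stood at 856 in PBS hearts and 1397 in VEGF-C hearts, and Ccl2 at 655 and 358. Among receptors Ackr3 (1188), Cxcr4 (1004) and Ccr2 (674) were the highest, and Ccr9 (4.98) was the lowest.

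**Figure D5:**
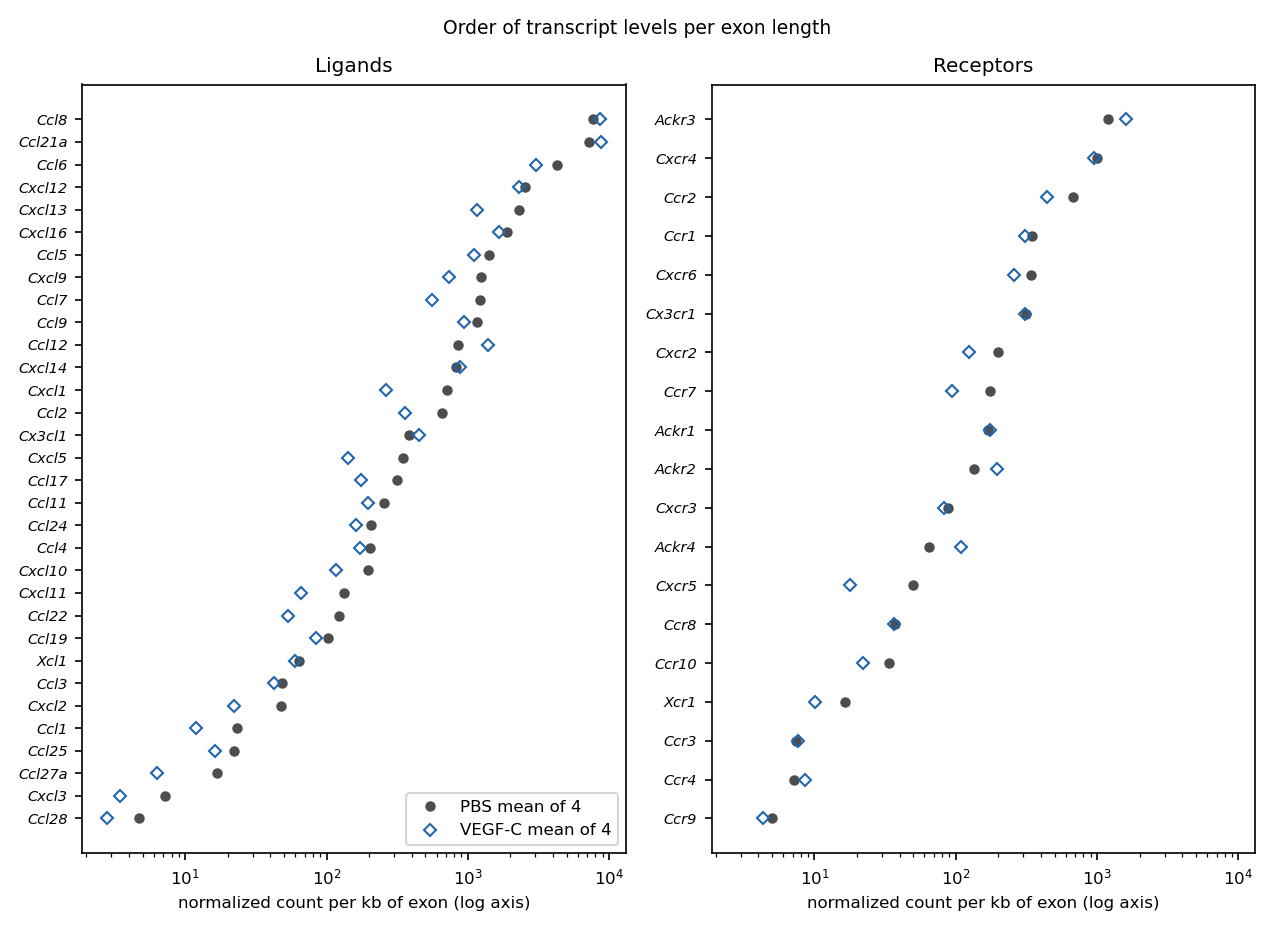
Mean normalized count per kb of exon (x axis, log scale) of the chemokine genes in PBS (filled circles) and VEGF-C hearts (open diamonds), ligands and receptors in separate panels and ordered by the PBS mean of 4 libraries. Ccl8 leads the ligands at 7646 and Ackr3 the receptors at 1188.

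Of 32 textbook pairs of a ligand and its receptor, 31 had values for both genes. Both fold changes were negative in 22 pairs, both were positive in 0, and 9 had opposite signs. These counts depend on the pairs listed. The list held Cxcl12 with Ackr3 but not the CCR7 ligands with Ackr4, and Ccl21a (0.27) and Ackr4 (0.76) were both positive. With 27 of 32 ligands and 14 of 20 receptors negative, many pairs would have both genes negative even if paired at random. No pair had both genes past the threshold, 5 had 1 and 26 had none. The 5 pairs were Ccl2 and Ccr2, Ccl12 and Ccr2, Ccl27a and Ccr10, Cxcl1 and Cxcr2, and Cxcl13 and Cxcr5. Pairs share genes, so these counts are not independent.

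Genes that act before and after chemokines were counted from lists, to be read beside the 8.61% of all genes that were lower and the 7.05% that were higher. Of 11 cytokines that induce chemokines and had values, 3 fell and 1 rose, with a median of -0.61: Tnf at -1.41 (limma adjusted p = 0.00375), Il6 at -1.49 (limma adjusted p = 0.0343) and Il1b at -1.22 (limma adjusted p = 0.0303) fell, and Tgfb1 at 0.54 (limma adjusted p = 0.00372) rose. Tnf and Tgfb1 kept their calls in every alternative fit, while Il1b lost its call without VEGF-C library 1, 2 or 3 and Il6 in 5 of the 8 fits that left out 1 library. Both also lost it with the robust fit. Of 10 NF-κB subunits and inhibitors 4 fell. They were Nfkbiz, which encodes an atypical member of the IκB family, at -0.47 (limma adjusted p = 0.00896) and the inhibitor Nfkbie at -0.59 (limma adjusted p = 0.0291). The others were Tnfaip3, which encodes the inhibitor A20, at -0.35 (limma adjusted p = 0.0333) and the subunit Relb at -0.40 (limma adjusted p = 0.0345). The median of that list was -0.12, and the Nfkbie call was lost without PBS library 3 and without VEGF-C library 3 or 4. The Tnfaip3 and Relb calls were lost in 5 and 6 of the 8 fits that left out 1 library.

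Of 26 genes of chemokine receptor signalling 6 fell and 1 rose, with a median of -0.19, against 15.7% past the threshold in either direction over all genes. Dock2, a Rac activator of migrating lymphocytes, fell at -0.58 (limma adjusted p = 0.00451), and Rgs16, which shortens G protein signals, at -0.79 (limma adjusted p = 0.00566). Pik3r5, a subunit of PI3Kγ, fell at -0.74 (limma adjusted p = 0.00610) and the β-arrestin gene Arrb2 at -0.57 (limma adjusted p = 0.0147). These 4 calls held in every alternative fit, whereas those of Vav1 and Grk6, which fell, and Gnb1, which rose, were lost in 4, 7 and 8 of the 8 fits that left out 1 library. The Gnb1 call was also lost with library totals, upper-quartile factors, limma-voom and the robust fit. Of 12 leukocyte adhesion genes 4 fell, with a median of -0.45, among them the integrins Itga4 at -0.62, Itgb2 at -0.45 and Itgal at -0.63. The Itgal call was lost without PBS library 3 and without VEGF-C library 2, 3 or 4.

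Of 9 proteases that trim chemokines 1 fell, Mmp9 at -0.91 (limma adjusted p = 0.0149), and of 9 heparan sulfate and syndecan genes, whose products hold chemokines on cell surfaces, 1 rose, Ext1 at 0.25 (limma adjusted p = 0.0451). A further list held 7 genes with values, not all of them chemokines or chemokine receptors, and 3 of them rose. They were Ppbp, a platelet CXC chemokine, at 1.498 (limma adjusted p = 0.0177), the chemerin receptor Cmklr1 at 0.42 (limma adjusted p = 0.00821) and Mif at 0.47 (limma adjusted p = 0.0294). Cmklr1 lost its call with library totals, Ppbp without VEGF-C library 3, and Ext1 and Mif in 7 and 5 of the 8 fits that left out 1 library. Ext1 and Mif also lost their calls with library totals and with upper-quartile factors. Of 4 platelet markers 0 passed, with a median of 0.51: Gp9 stood at 1.35 (limma adjusted p = 0.0748) and Treml1 at 0.96 (limma adjusted p = 0.131), and Itga2b and Itgb3 at 0.06 and 0.03. Their sums overlapped (1206 to 1493 in PBS and 1059 to 1852 in VEGF-C hearts), none was at 0, and their part in the Ppbp value was not tested.

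In the authors' deposited table of the same comparison, with adjusted p under 0.05, 21.6% of all genes passed. That table called 9 of 32 ligands (28.1%) and 6 of 20 receptors (30%), among them all 5 genes that passed in limma. Of the ligands in the authors' deposited table, 8 were lower, Ccl2, Ccl6, Ccl7, Ccl22, Ccl27a, Cxcl1, Cxcl2 and Cxcl5, against 11.4% of all genes, and Ccl12 was higher, against 10.2%. The authors' deposited table also gave Cxcr5, Ccr7 and Ccr2 as lower and Ackr2, Ackr3 and Ackr4 as higher. For Cxcl1 the adjusted p in the authors' deposited table was 0.00322, and for Ackr3 it was 0.0163.

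Scaling moved the balance of directions over all genes. With the deposited size factors 1328 genes were higher and 1621 lower, with library totals 243 and 3572, and with upper-quartile factors 797 and 1920. With library totals the median of all genes moved to -0.19. The ligand median was then -0.64, which is -0.46 relative to that of all genes, as before. Library totals gave 8 ligands (Ccl2, Ccl6, Ccl7, Ccl27a, Cxcl1, Cxcl2, Cxcl5 and Cxcl13) and 3 receptors (Ccr2, Ccr7 and Cxcr5), all lower, against 20.3% of all genes, and the Ccl12 call was then lost.

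The counts of called genes in the family varied with the libraries used. Without PBS library 1, 2, 3 or 4 the ligands past the threshold numbered 7, 0, 5 and 2 and the receptors 1, 2, 1 and 0, while 15.4%, 11.2%, 10.6% and 11.5% of all genes passed. Without VEGF-C library 1, 2, 3 or 4 the ligands numbered 0, 1, 1 and 1 and the receptors 1 in each case, while 10.4%, 11.4%, 8.94% and 11.2% of all genes passed. With all libraries, the share of all genes past the threshold was 14.4% with upper-quartile factors, 15.4% with log2(x + 1), 17.1% among genes with a mean normalized count of at least 50, 14.8% with limma-voom and 15.9% with the robust fit.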

How the data were processed

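Bulk RNA from 8 mouse hearts was analysed, 4 per group, with groups taken from the treatment given in the labels. Per the submitters' processing notes, the build was GRCm39, and the tools were DESeq2 1.38.3, featureCounts of Subread 2.0.1, STAR 2.7.10a and Trim Galore 0.6.10. The deposited table holds log2 values of normalized counts plus 4, as its values show. Dividing out 1 size factor per library gave whole reads for 100.000% of the values below 1000 reads in each library (tolerance 0.01), and those factors, checked against median-of-ratios factors, gave a ratio of 1.000. Why some genes have no values is not stated. In that table the authors also deposited their fold changes and adjusted p-values for the same comparison, on a log2 scale.

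The deposited log2 values were fitted with limma 3.58.1 in R 4.3.3 (treatment only, mean-variance trend, 6 residual degrees of freedom, two-sided, Benjamini-Hochberg adjustment over 18835 genes, threshold 0.05), and the fit was tested on simulated data. The alternatives were library totals, upper-quartile factors, log2(x + 1), a mean normalized count of at least 50, limma-voom on the recovered reads, a robust variance fit, and leaving out each of the 8 libraries. Exon lengths, gene order and overlaps came from GENCODE and RefSeq tables of GRCm38.p6. Protein sequences were not used here. Every chemokine gene with values could be named. Genes past the threshold and a set fixed by name are given with all 8 values, and from other lists up to 4 genes with the smallest p. The members and lists were chosen with earlier results of these data known. Some genes that belong to the lists are not reported here one by one, but the counts and medians include them.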

Additional observations from a re-analysis of the deposited data

Results flagged for a closer look

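In 7 of 104 groups (each of 52 genes in PBS and in VEGF-C), 1 library lay far from the other 3 on the log2 scale: its gap to the nearest of them, divided by the whole range of the group, exceeded Dixon's 95% critical value for 4 samples. At 1 in 20 groups chance alone flags about 5.2.

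Ligands held 4 of them. Ccl12 was highest in PBS library 4, at 9.43 against 8.56 to 8.63 (gap 0.914 of the range). Ccl17 was highest in PBS library 1, at 8.43 against 6.63 to 6.79 (gap 0.908). Ccl8 was lowest in PBS library 2, at 11.79 against 11.97 to 11.99 (gap 0.909). Ccl1 was lowest in VEGF-C library 3, at 3.08 against 5.16 to 5.43 (gap 0.888).

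Receptors held the other 3. Ackr3 was lowest in PBS library 1, at 11.51 against 12.06 to 12.10 (gap 0.936). Ccr3 was highest in PBS library 3, at 6.18 against 3.60 to 3.98 (gap 0.853). Cxcr4 was lowest in VEGF-C library 2, at 10.52 against 10.79 to 10.83 (gap 0.863).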

How the results depend on the processing

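Depth limits the lowest genes: 3 of the 52 chemokine genes had fewer than 10 reads in at least 1 library. Leaving out 1 library moved the number of ligands past the threshold from 4 to between 0 and 7, of receptors from 1 to between 0 and 2, and of all genes to between 1684 and 2906. The ligand median then ranged from -0.61 to -0.26 and the receptor median from -0.22 to -0.08. The number of chemokine genes without overlap ranged from 7 to 13 of 52 (6 with all libraries). Over all 18835 genes that number rose as well, to between 4922 and 5608 (4336 with all libraries). Library totals gave 8 ligands, 3 receptors, a receptor median of -0.29 and 10 chemokine genes without overlap, against 4722 of all genes. With the robust fit 2 receptors passed (Cxcr5 and Ackr3). The cause was not tested. Over the 52 genes, 717 values under the alternatives could be had: 650 kept direction and side of the threshold, 25 no longer passed, 15 newly passed and 27 changed sign. With library totals Ackr1 was at -0.16, Ccl8 at -0.064 and Cxcl14 at -0.080, and with upper-quartile factors Ackr1 was at -0.027. Leaving out 1 library gave ranges of -0.19 to 0.19 for Ackr1, -0.035 to 0.28 for Ccl8, -0.44 to 0.014 for Ccl19, -0.49 to 0.071 for Ccl5, -0.084 to 0.043 for Cx3cr1, -0.99 to 0.089 for Cxcl9, -0.33 to 0.100 for Cxcr3, -1.08 to 0.038 for Ccl1, -0.45 to 0.15 for Ccl3, -0.32 to 0.19 for Ccr8, -0.070 to 0.27 for Cxcl14 and -0.27 to 0.18 for Xcl1. No paired analysis was possible because no animal number occurs in both groups and the library numbers tie to no animal.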
